A study of Homo sapiens with 12 samples.

Results

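Cells resistant to GNE-7883 were compared with cells sensitive to it while both were in the drug, 3 libraries of each and so 6 of the 12 libraries of the series, chosen by their sample titles. The sensitive cells were NCI-H226, a human line labelled as mesothelioma by cell type and as lung epithelium by tissue. The resistant cells were NCI-H226_CL3, which was derived from NCI-H226 by growth in a TEAD inhibitor raised from 0.25 to 3 µM. Both are NF2-null by the labels, and both were grown in RPMI 1640 with fetal bovine serum. GNE-7883 is a small molecule that inhibits the TEAD transcription factors. For the final incubation, neither its dose nor its length is given in the sources used here. The same 2 lines in DMSO, the solvent, make up the other 6 libraries and served to show which differences between the lines were also present without the drug. Only 1 resistant line was profiled, so each difference is one between these cultures, and since the labels name no separate cultures behind the 3 libraries of a group, the p-values reflect a spread that may be technical alone. The series is about acquired resistance to TEAD inhibition and the Hippo and MAPK pathways, and genes of both are described first.

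The Hippo pathway is a kinase cascade in which NF2, a membrane scaffold, helps MST and LATS kinases to phosphorylate the co-activators YAP (gene YAP1) and TAZ (gene WWTR1), which are then held in the cytoplasm. Without NF2, YAP and TAZ enter the nucleus more freely and, bound to TEAD proteins, switch on genes of growth and matrix such as CCN1, CCN2 and ANKRD1. Loss of NF2 is common in mesothelioma, which makes TEAD a drug target there. The MAPK pathway carries growth factor signals from receptors through RAS, RAF, MEK and ERK to ETS and AP-1 transcription factors, and ERK also switches on its own brakes, the DUSP phosphatases and Sprouty proteins. AP-1 and TEAD often occupy the same enhancers.

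Promoters of 4 genes show the kinds of sequence that lie upstream of the gene groups below. Each is the 250 bases before the RefSeq start on GRCh38.p14, 5′ to 3′ on the strand of the gene, with the motif in capitals. CCN2 (chr6:131951373-131951622, minus strand) and ANKRD1 (chr10:90921088-90921337, minus strand) are shown for the TEAD letters GGAATG on either strand, CCNB2 (chr15:59104896-59105145, plus strand) for the cell cycle letters TTTGAA and for CCAAT, and IFIT1 (chr10:89392373-89392622, plus strand) for the interferon response element, GAAA, any 2 bases and GAAA again.
CCN2: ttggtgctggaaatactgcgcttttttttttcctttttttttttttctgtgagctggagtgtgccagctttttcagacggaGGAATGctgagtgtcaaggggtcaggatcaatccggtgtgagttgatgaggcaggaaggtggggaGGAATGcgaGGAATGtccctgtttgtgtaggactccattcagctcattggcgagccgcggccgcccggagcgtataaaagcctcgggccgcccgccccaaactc
ANKRD1: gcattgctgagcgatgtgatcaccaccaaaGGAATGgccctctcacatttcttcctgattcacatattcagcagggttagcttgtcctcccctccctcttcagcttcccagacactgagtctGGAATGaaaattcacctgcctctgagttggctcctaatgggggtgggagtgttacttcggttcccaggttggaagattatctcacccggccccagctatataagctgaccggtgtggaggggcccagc
CCNB2: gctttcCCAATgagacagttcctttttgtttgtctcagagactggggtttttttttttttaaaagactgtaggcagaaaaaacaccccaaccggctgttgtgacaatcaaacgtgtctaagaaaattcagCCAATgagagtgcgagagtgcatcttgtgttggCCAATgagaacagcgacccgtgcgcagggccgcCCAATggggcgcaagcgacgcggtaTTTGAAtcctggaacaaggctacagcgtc
IFIT1: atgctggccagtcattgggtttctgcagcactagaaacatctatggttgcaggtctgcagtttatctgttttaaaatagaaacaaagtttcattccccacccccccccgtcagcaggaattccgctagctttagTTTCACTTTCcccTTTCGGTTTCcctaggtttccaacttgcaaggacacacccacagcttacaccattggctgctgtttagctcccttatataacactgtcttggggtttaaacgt
The CCN2 stretch held 3 matches to GGAATG, which began 169, 104 and 95 bases before the start, and the ANKRD1 stretch held 2. CCNB2 had 1 TTTGAA, 29 bases before the start, and 4 CCAAT matches. IFIT1 had 2 matches to the interferon element, which began 116 and 103 bases before the start and did not overlap, both on the other strand (read as TTTC repeats in the printed letters). GGAATG occurred in 8 of the 19 promoters of the 17 YAP/TEAD target genes, of 22, that the RefSeq table held (42.1%), against 11.9% of all 35116 promoters of this length. TTTGAA occurred in 12 of the 28 promoters of 22 of 28 G2/M genes (42.9%), against 13.3% of all. The interferon element occurred in 20 of the 37 promoters of 27 of 35 listed interferon-stimulated genes (54.1%), against 3.02%. CCAAT occurred in 22 of the 28 G2/M promoters (78.6%) and in 32% of all. Each motif was searched on both strands, and these shares describe letters, not occupied sites.

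Total counts were 36953126, 34035917 and 38708770 in the sensitive libraries with drug and 46962645, 41670003 and 35737227 in the resistant ones. Levels are given as CPM, read counts relative to library size after TMM scaling, and differences as log2 fold changes, resistant minus sensitive, ± standard error with 3 libraries against 3, from a fit over all 12 libraries. A gene was called when its adjusted p was under 0.05 in edgeR's quasi-likelihood test, and higher or lower in resistant cells is said of called genes. One library of the other comparison, sensitive DMSO replicate 2, stood apart from its group: the chi-square of its counts against its replicates was 39.4 and 45.5 per degree of freedom, against 3.33 between those 2 replicates. It enters the shared estimate of the spread. Counts over all genes, and list counts in DMSO and of the difference, are followed by their values without it where these differ. Under the drug, leaving it out moved no list count in 1 direction by more than 2 genes, and the 3 such counts that moved by over 1.5 times are given. NF2 had 3 counts over the 3 sensitive libraries with drug and 5 over the 3 resistant ones.

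Under the drug the lines differed in most of the transcriptome. Of 18035 genes tested, 11159 (61.9%) were called, 5544 higher (30.7%) and 5615 lower (31.1%) in resistant cells, and 12181 were called of 18358 tested without sensitive DMSO replicate 2. At least 2-fold differences were called for 3590 genes (19.9%), 1503 higher (8.33%) and 2087 lower (11.6%), or 3744 without that library. The median over all genes tested was -0.01. In DMSO, 8775 genes (48.7%) were called, 4367 higher (24.2%) and 4408 lower (24.4%), with 2132 (11.8%) at least 2-fold, 787 of them higher (4.36%) and 1345 lower (7.46%). Without sensitive DMSO replicate 2 these counts were 9058, of which 4633 higher and 4425 lower, and 2114 at least 2-fold. Of the 3590 genes at least 2-fold apart under the drug, 2519 (70.2%) were called with the same sign in DMSO, 63 (1.75%) with the opposite sign and 1008 (28.1%) were not called there (2528, 59 and 1157 of 3744 without sensitive DMSO replicate 2). The difference between the 2 line differences, tested itself, was called for 6443 genes (35.7%; 7111 without sensitive DMSO replicate 2), 3435 of them relatively higher in resistant cells under the drug (19%) and 3008 relatively lower (16.7%). Among the 3590 it was called for 1813 genes (50.5%) as larger under the drug and for 124 as smaller or turned (1844 and 138 of 3744 without sensitive DMSO replicate 2). Most list counts under the drug are followed below by their shares in percent, and most counts in DMSO and of the difference are not. All are to be read against these shares of all genes: 30.7% higher and 31.1% lower under the drug, 24.2% and 24.4% in DMSO, and 19% and 16.7% for the difference.

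**Figure D1:**
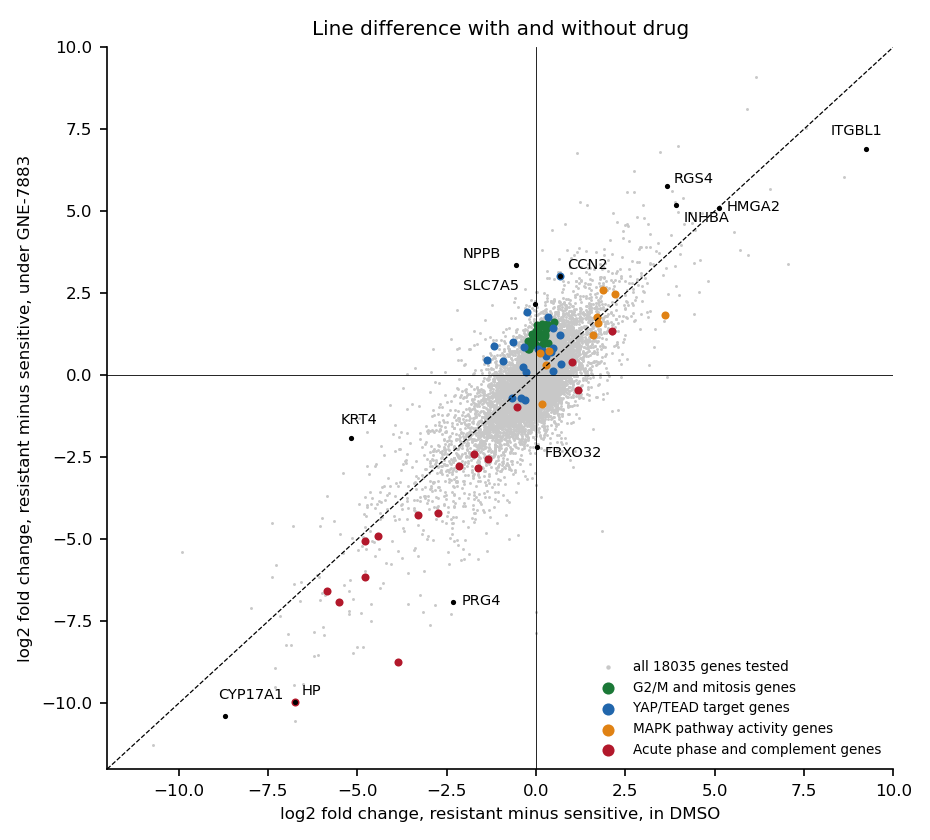
Log2 fold change between the lines, resistant minus sensitive, in DMSO (x axis) and under GNE-7883 (y axis), 1 grey point per gene tested, with 4 gene lists in colour, 12 named genes and the line of equality dashed. G2/M genes (green) lie near 0 in DMSO (median 0.07) and near 1 under the drug (median 1.18), most MAPK activity genes (orange) were higher in both, and most acute phase genes (red) were lower in both.

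The 12 genes with the largest rises were near silent or low in the sensitive line under the drug. RGS4 (chromosome 1, 163068775 to 163076802), which speeds the shut-off of G-protein signals, was at 11.6, 10.2 and 16.1 CPM in the sensitive libraries and 680.4, 692 and 679 CPM in the resistant ones, a log2 fold change of 5.75 ± 0.13. In DMSO the sensitive line stood at 66.4, 60.6 and 67.97 CPM. INHBA (chromosome 7, 41667168 to 41705834), the subunit of the secreted ligand activin A, was at 7.54, 7.64 and 7.43 CPM and 267, 276 and 275 CPM, a log2 fold change of 5.18 ± 0.07. HMGA2 (chromosome 12, 65824131 to 65966295), a chromatin architectural protein of embryonic and tumour cells, was at 2.00, 2.05 and 2.33 CPM and 73.3, 73.5 and 72.3 CPM, or 5.09 ± 0.09. ABCG2 (chromosome 4, 88090264 to 88231322), a transporter that pumps many drugs out of cells, was at 6.87, 5.80 and 7.67 CPM in the sensitive and 156, 173 and 169 CPM in the resistant libraries, or 4.61 ± 0.10. For all 4 the groups did not overlap, which was a condition of their choice. Over all genes, 34.3% had the resistant libraries above without overlap and 35.2% had them below. These 4 genes also differed between the lines in DMSO, by 3.66 ± 0.11, 3.92 ± 0.06, 5.13 ± 0.09 and 4.14 ± 0.10 in the same order.

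ADAMTS6, a secreted metalloprotease, had 2, 4 and 9 counts in the sensitive libraries and 913, 772 and 634 in the resistant ones, a depth-scaled ratio of 129 (95% counting interval 78.4 to 231). ITGBL1, an integrin-like secreted protein, had 16 against 2342 counts, a ratio of 122 (75.4 to 214). Such intervals cover the counting error of the lower count only. The other genes in the 12 largest rises were COLEC10 (a collectin), SERPINB7 (a serine protease inhibitor), DENND2A (a Rab activator), SLC8A1 (a sodium and calcium exchanger), VEPH1 and BMPER (a secreted BMP modulator), with log2 fold changes from 3.91 to 5.18. The highest-level genes at least 2-fold higher included LIMA1, PTPRF and LOXL2, a collagen cross-linking enzyme. LOXL2 stood at 495, 438 and 481 CPM in the sensitive and 1872, 1661 and 1787 CPM in the resistant libraries, a log2 fold change of 1.91 ± 0.06 that was 0.54 ± 0.06 in DMSO.

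The genes with the largest drops included secreted and lineage genes that the sensitive line carried at high levels under the drug. CYP17A1 (chromosome 10, 102830531 to 102837533), a steroid hydroxylase, was at 624, 643 and 649 CPM in the sensitive and 0.522, 0.394 and 0.519 CPM in the resistant libraries, a log2 fold change of -10.38 ± 0.11. SFTPD (chromosome 10, 79937740 to 79982614), surfactant protein D, was at 751, 758 and 779 CPM and 1.38, 2.04 and 1.31 CPM, or -8.91 ± 0.14. ISM2 and ERVFRD-1 (syncytin-2, a membrane fusion protein of retroviral origin) had log2 fold changes of -7.68 ± 0.09 and -7.89 ± 0.10, and PTPRQ had one of -6.69 ± 0.23. In DMSO CYP17A1 and SFTPD were also lower, at -8.70 ± 0.11 and -7.30 ± 0.15. ISM2, ERVFRD-1 and PTPRQ were lower there at -5.97 ± 0.09, -6.93 ± 0.12 and -5.92 ± 0.23. CYTL1, a secreted cytokine-like protein, had 277, 270 and 273 counts in the sensitive libraries and 0 in each resistant one, at least 327-fold lower when the floor of 3 counts is taken over the resistant group. MUC16, the mesothelial mucin CA125, had 4206 counts over the sensitive and 3 over the resistant libraries, a ratio of 1680 (95% counting interval 574 to 8130), though 1 sensitive library held 2132 of them. BNIP5 had 618 against 2 counts (ratio 370, 102 to 3050). CYTL1, MUC16 and BNIP5 were called lower in DMSO as well. The highest-level genes at least 2-fold lower were SOD2, the mitochondrial superoxide dismutase, SLPI, PRSS23 and C3, with PTGIS, the prostacyclin synthase. SOD2 was at 6326, 6757 and 6554 CPM in the sensitive libraries and 995, 1069 and 1038 CPM in the resistant ones, a log2 fold change of -2.66 ± 0.06 that was -1.14 ± 0.05 in DMSO.

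**Figure D2:**
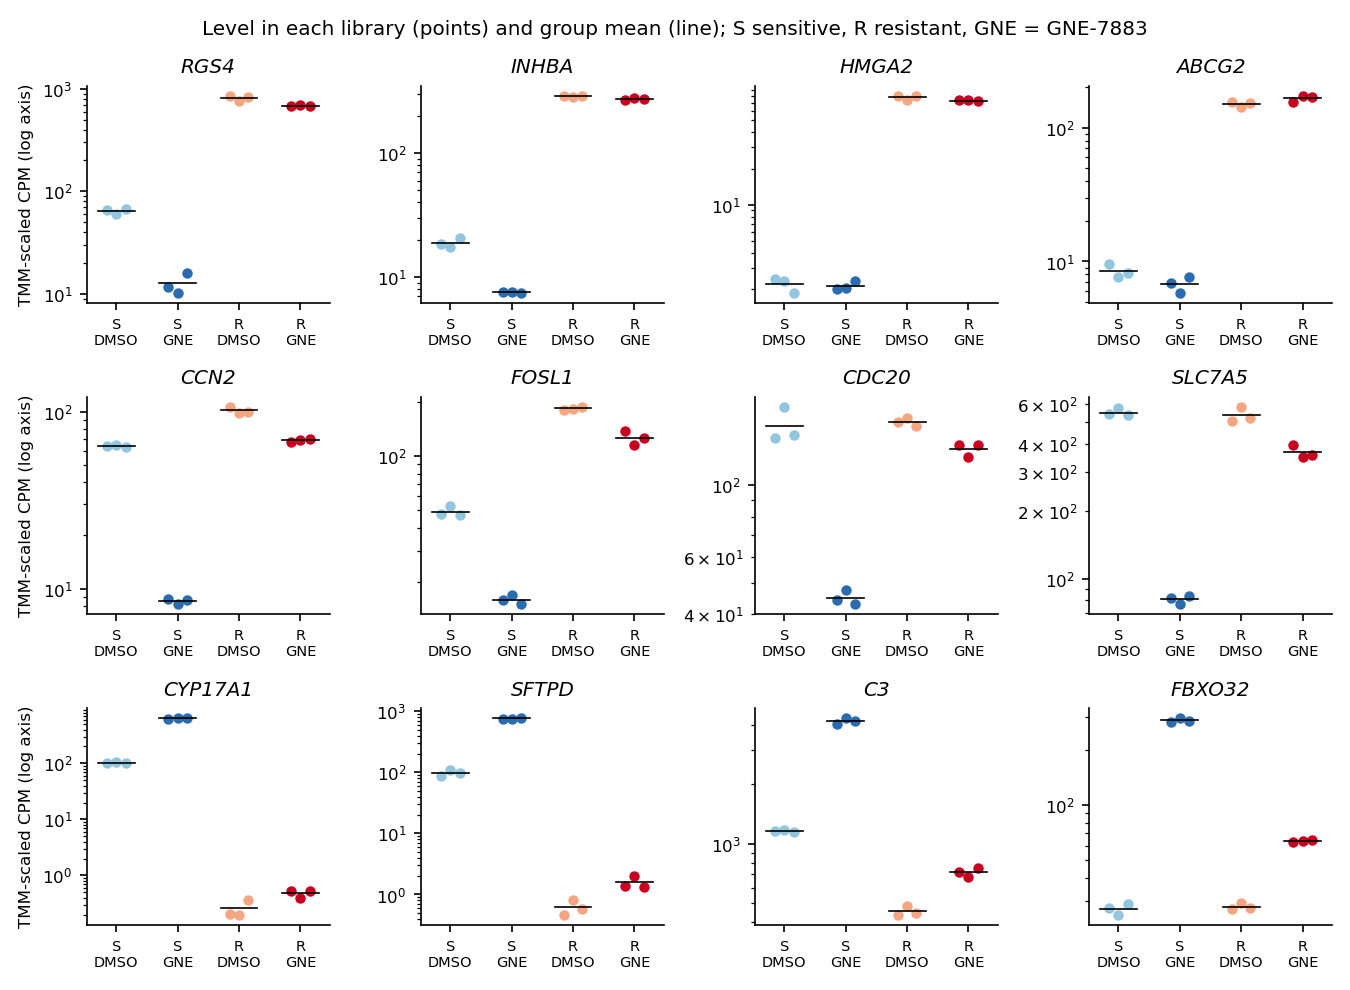
TMM-scaled CPM on a log axis of 12 genes in each of the 12 libraries (points) with group means (lines), sensitive (S, blue) and resistant (R, red), in DMSO and GNE-7883 (GNE). RGS4, INHBA, HMGA2 and ABCG2 are higher in resistant cells in both media, and CCN2, CDC20 and SLC7A5 are low in the sensitive cells with drug alone.

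Most YAP/TEAD target genes were higher in the resistant cells under the drug. Of 22 on a list of such targets, all tested, 17 were called higher and 3 lower (77.3% and 13.6%), beside 30.7% and 31.1% of all genes. Their median log2 fold change was 0.72, beside -0.01 over all genes, and 6 were at least 2-fold higher. In DMSO the same list split 10 higher and 10 lower (10 and 11 without sensitive DMSO replicate 2), with a median of -0.10. The difference between the 2 was called as higher under the drug for 17 of the 22 genes and lower for 1 (17 and 2 without sensitive DMSO replicate 2).

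CCN2 (connective tissue growth factor; chromosome 6, 131948176 to 131951373), whose promoter with 3 GGAATG matches is printed above, was at 8.74, 8.16 and 8.57 CPM in the sensitive and 67.5, 69.8 and 70.6 CPM in the resistant libraries. Its log2 fold change was 3.03 ± 0.06 under the drug (adjusted p = 1.97e-15) and 0.67 ± 0.05 in DMSO, and the difference of 2.36 ± 0.08 was called. F3 (tissue factor, which starts coagulation) was at 22.2, 22.5 and 22.5 CPM and 86.6, 84.7 and 84.3 CPM, higher by 1.93 ± 0.06 under the drug and lower, at -0.26 ± 0.05, in DMSO. FJX1 was at 10.5, 10.6 and 10.3 CPM and 36.4, 36.2 and 33.9 CPM, and CCN1, the sister matricellular protein, at 396, 414 and 416 CPM and 1113, 1088 and 1112 CPM. These 4 genes had the largest differences of the list, with no overlap between the lines. AMOTL2, which binds YAP and is itself a target, differed by 1.23 ± 0.07 and GADD45B, a stress response gene, by 1.01 ± 0.10. IGFBP3 (an IGF-binding protein), CCDC80 (a matrix protein), LATS2 (a Hippo kinase) and GADD45B were each higher under the drug and lower in DMSO. IGFBP3 shows this at 0.89 ± 0.05 against -1.19 ± 0.05, and its difference of 2.08 ± 0.07 was called.

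ANKRD1, a muscle-type ankyrin repeat protein often used as a YAP readout, had the same signs at a low level. It was at 2.06, 1.99 and 2.52 CPM in the sensitive and 2.84, 3.40 and 2.95 CPM in the resistant libraries, higher by 0.48 ± 0.13 under the drug (adjusted p = 0.00445) and lower at -1.38 ± 0.10 in DMSO. AXL, a receptor kinase, was higher at 0.80 ± 0.05 under the drug and stood at 0.06 ± 0.05 in DMSO (adjusted p = 0.376, not called). TGFB2, MYOF, NUAK2, FOXF2, NT5E and ASAP1 were called higher by between 0.35 and 0.87. PTPN14, ARHGEF17 and RBMS3 were lower, at -0.69 ± 0.15, -0.71 ± 0.08 and -0.76 ± 0.08. The 2 targets not called were CRIM1 at 0.10 ± 0.08 (adjusted p = 0.331) and DOCK5 at 0.14 ± 0.11 (adjusted p = 0.287). Both were called, at adjusted p of 0.0192 and 0.0477, when sensitive DMSO replicate 2 was left out of the fit.

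**Figure D3:**
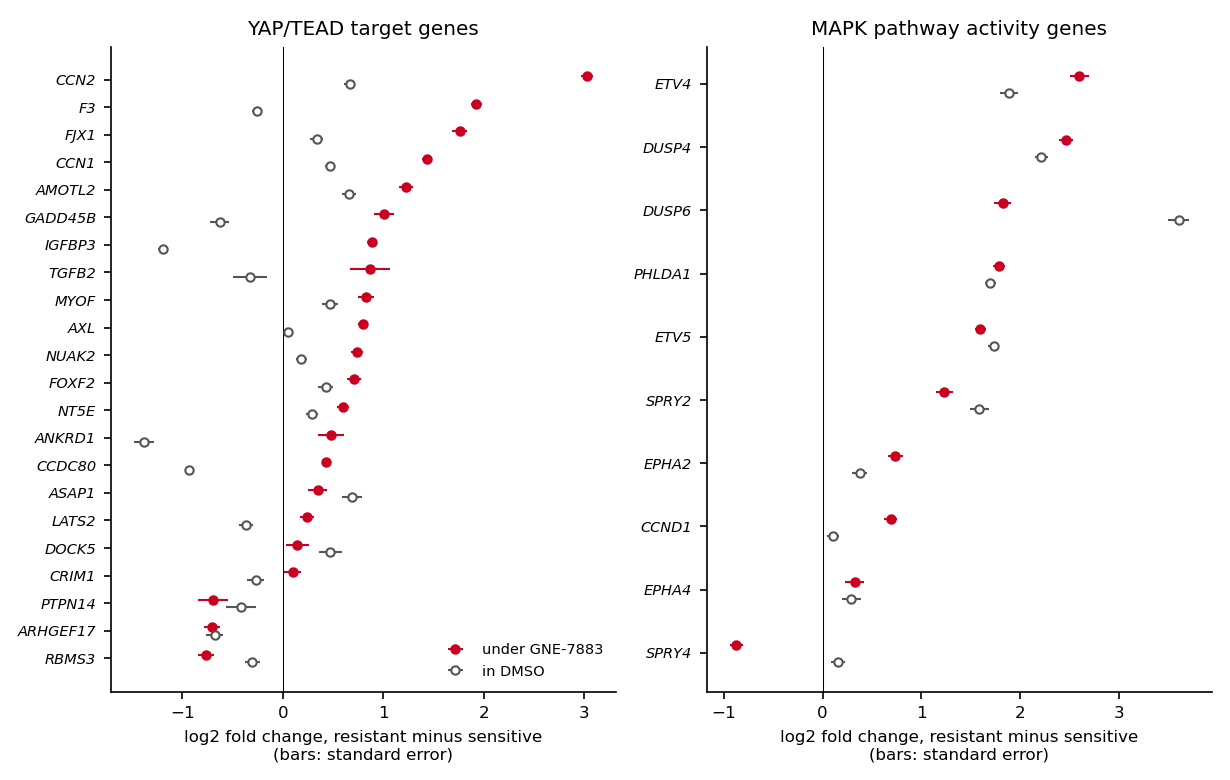
Log2 fold change between the lines with its standard error for each YAP/TEAD target gene (left) and MAPK activity gene (right), under GNE-7883 (red) and in DMSO (open). For 17 of 22 YAP/TEAD targets the red point lies to the right of the open one by a called difference, while MAPK activity genes other than SPRY4 are right of 0 under the drug.

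None of the Hippo effectors was called at 2-fold. Of 9 tested, 1 was called higher (2 without sensitive DMSO replicate 2) and 4 lower (11.1% and 44.4%). YAP1 was at 289, 284 and 284 CPM in the sensitive and 248, 257 and 259.8 CPM in the resistant libraries, a log2 fold change of -0.16 ± 0.09 that was not called (adjusted p = 0.114) but was called, at 0.00237, without sensitive DMSO replicate 2. WWTR1 was lower at -0.79 ± 0.08 and TEAD1 at -0.70 ± 0.14, and TEAD3 was higher at 0.51 ± 0.06. TEAD4 was at 0.08 ± 0.07 (adjusted p = 0.351), and TEAD2 was lower at -0.25 ± 0.08 (adjusted p = 0.0135), a call lost in 5 of the alternatives tried. On the length-corrected RPKM scale of the authors, TEAD1 led the family in both lines, at 65.7 ± 2.58 RPKM (SD, n = 3) in sensitive and 42.6 ± 1.23 RPKM in resistant cells, before TEAD4 at 23.8 ± 1.05 and 26.6 ± 1.11 RPKM. TEAD2 and TEAD3 were at 7.93 ± 0.663 and 8.17 ± 0.209 RPKM in sensitive cells, and at 7.02 ± 0.372 and 12.2 ± 0.748 RPKM in resistant ones. VGLL3, a TEAD cofactor, was lower at -0.53 ± 0.13, while VGLL4 at 0.11 ± 0.07 and VGLL2 at -0.28 ± 0.13 were not called (adjusted p = 0.170 and 0.0711).

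Among 25 Hippo kinases and upstream adaptors tested, 12 were higher and 5 lower (48% and 20%, beside 30.7% and 31.1% of all genes). The angiomotins, which hold YAP at junctions, differed in direction: AMOTL1 was higher at 2.16 ± 0.16 and AMOT, at 4.79, 4.86 and 5.04 CPM in the sensitive and 0.585, 0.880 and 0.628 CPM in the resistant libraries, was lower at -2.81 ± 0.19. FRMD6, an upstream activator of the cascade, was at 199, 191 and 199 CPM and 598, 623 and 607 CPM, higher by 1.63 ± 0.08. The median of the list lay at -0.03 and changed sign in 6 of the alternatives.

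Most MAPK pathway activity genes were higher in resistant cells with and without drug. Of 10 genes of this kind, 9 were called higher and 1 lower under the drug (90% and 10%), with a median of 1.42, and 8 were called higher in DMSO, with a median of 1.64. The difference between the 2 was called in both directions, for 4 genes as higher under the drug and for 3 as lower, with the same counts without sensitive DMSO replicate 2. DUSP4 and DUSP6 are phosphatases that ERK induces and that switch ERK-type kinases off. DUSP4 was at 11.7, 11.1 and 13.1 CPM in the sensitive and 67.8, 62.8 and 66.8 CPM in the resistant libraries, a log2 fold change of 2.46 ± 0.07. DUSP6 was at 5.87, 7.04 and 5.99 CPM and 22.5, 21.6 and 22.7 CPM, or 1.82 ± 0.09, and its line difference in DMSO was larger, at 3.60 ± 0.10 (difference -1.78 ± 0.14, called). ETV4 and ETV5 are ETS factors downstream of ERK. ETV4 was at 5.79, 4.95 and 5.84 CPM and 36.2, 30.4 and 33.9 CPM, or 2.60 ± 0.10, and ETV5 at 29.7, 32.3 and 31.8 CPM and 93.8, 96.6 and 93.6 CPM, or 1.60 ± 0.06.

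PHLDA1 differed by 1.79 ± 0.06, SPRY2 by 1.23 ± 0.09, EPHA2 by 0.74 ± 0.07 and EPHA4 by 0.33 ± 0.10. CCND1, cyclin D1, was at 254, 229.6 and 247 CPM in the sensitive and 401, 388 and 388 CPM in the resistant libraries, higher by 0.69 ± 0.06 under the drug, while in DMSO its difference of 0.11 ± 0.06 was not called (adjusted p = 0.182). SPRY4, a Sprouty inhibitor of receptor signalling, went the other way, at 57.8, 54.3 and 51.8 CPM and 30.7, 28.4 and 30.4 CPM, lower at -0.87 ± 0.07. SPRY1 was also lower, at -1.98 ± 0.15. Of 16 other ERK output and feedback genes, 13 were higher and 1 lower under the drug (81.2% and 6.25%), with a median of 0.77, and 14 higher and 1 lower in DMSO (15 and 1 without sensitive DMSO replicate 2). They include HMGA2, UPP1 (a uridine phosphorylase) at 2.73 ± 0.13 and FOSL1.

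FOSL1 encodes the AP-1 subunit FRA1. It was at 16.03, 17.04 and 15.1 CPM in the sensitive and 138, 116 and 125 CPM in the resistant libraries, a log2 fold change of 2.97 ± 0.08 under the drug and 1.90 ± 0.07 in DMSO, with a called difference of 1.08 ± 0.10. Of 15 AP-1 subunits, 8 were higher and 5 lower (53.3% and 33.3%), with a median of 0.56. JUN was higher at 1.32 ± 0.07 and BATF3, at low levels, at 1.52 ± 0.15. MAF, a large bZIP factor, was at 181, 174 and 180.03 CPM and 19.995, 17.3 and 19.2 CPM, lower at -3.24 ± 0.07.

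The genes of the RAS, RAF, MEK and ERK chain did not share a direction, with 9 of 23 higher and 10 lower (39.1% and 43.5%). MRAS was lower at -1.57 ± 0.08 and the scaffold KSR1 at -1.26 ± 0.08, and the RAS inhibitors RASA1 and RASAL2 were higher at 1.02 ± 0.07 and 0.92 ± 0.12. Receptor tyrosine kinases split likewise, 13 higher and 13 lower of 30 (43.3% each). PDGFRA, a PDGF receptor, was at 15.9, 16.7 and 17.3 CPM in the sensitive and 0.836, 0.926 and 0.628 CPM in the resistant libraries, lower at -4.37 ± 0.16. IGF1R, the IGF-1 receptor, was at 652, 569 and 559 CPM and 90.3, 87.6 and 88.9 CPM, lower at -2.74 ± 0.10 under the drug and -2.51 ± 0.10 in DMSO. KDR, a VEGF receptor, was lower at -2.55 ± 0.08 and FLT1, at under 3 CPM, higher at 1.85 ± 0.28. ERBB3 was at 50.4, 44.4 and 47.8 CPM and 102, 95.7 and 101 CPM, higher by 1.07 ± 0.07 under the drug and lower at -1.19 ± 0.07 in DMSO.

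Of 30 growth factor ligands, 15 were higher and 8 lower (50% and 26.7%), 10 and 6 of them by at least 2-fold. FGF1 was at 1.25, 0.695 and 1.38 CPM in the sensitive and 13.1, 13.6 and 12.7 CPM in the resistant libraries, a log2 fold change of 3.54 ± 0.14 under the drug against 0.64 ± 0.10 in DMSO. EPGN (epigen, an EGF receptor ligand) had 25 counts over the sensitive and 470 over the resistant libraries, a ratio of 15.7 (95% counting interval 10.6 to 24.3). FGF18 went the other way, at 109.7, 100.02 and 113 CPM and 10.3, 11.3 and 11.4 CPM, or -3.29 ± 0.08. INHBA had the largest log2 fold change of the list, and the activin antagonist FST was also higher, at 1.87 ± 0.14. Of 19 TGF-beta and activin response genes, 7 were higher and 10 lower (36.8% and 52.6%), with ID1 and ID2, targets of BMP signals, lower at -2.09 ± 0.11 and -2.09 ± 0.07.

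Nearly all cell cycle genes were higher in resistant cells under the drug, by more than in DMSO. All 28 G2/M and mitosis genes were called higher under the drug, with a median of 1.18, and 27 of 28 S-phase and G1/S genes, with a median of 1.13 and 1 gene lower. In DMSO the lists were mixed, with medians of 0.07 for both. There 9 of the G2/M genes were higher and 3 lower (32.1% and 10.7%), or 11 and 2 without sensitive DMSO replicate 2. Of the S-phase genes 12 were higher and 6 lower (42.9% and 21.4%), or 13 and 6 without that library. The difference between the 2 was called as higher under the drug for 28 of 28 and 27 of 28 genes, with and without sensitive DMSO replicate 2. CDC20, the activator of the anaphase-promoting complex, was at 44.2, 47.3 and 42.9 CPM in the sensitive and 133, 122 and 134 CPM in the resistant libraries, or 1.53 ± 0.08, and the log2 fold change in DMSO was 0.04 ± 0.08 (adjusted p = 0.709), or 0.15 and called (adjusted p = 0.0191) without sensitive DMSO replicate 2. BUB1, a spindle checkpoint kinase, was at 37.8, 37.6 and 37.3 CPM and 108, 117 and 109 CPM, or 1.57 ± 0.06 against 0.31 ± 0.06 in DMSO. NUF2 and CENPA, kinetochore and centromere proteins, were higher at 1.62 ± 0.09 and 1.56 ± 0.08. In DMSO NUF2 was higher at 0.50 ± 0.08, and CENPA stood at 0.16 ± 0.07 (adjusted p = 0.0621, or 0.00843 without sensitive DMSO replicate 2). CCNB2, cyclin B2, chosen after its values were seen because its promoter is printed above, was at 64.9, 69.8 and 66.8 CPM and 124, 132 and 126 CPM, or 0.92 ± 0.06.

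MCM5, a subunit of the replicative helicase, was at 25.7, 23.4 and 26.5 CPM in the sensitive and 98.1, 86.3 and 89.7 CPM in the resistant libraries, or 1.86 ± 0.08. Its partners in origin firing, MCM10 and CDC45, were higher at 1.92 ± 0.07 and 1.85 ± 0.09, and CCNE2 (cyclin E2) at 1.87 ± 0.12. These 4 genes were also higher in DMSO, by less: MCM5 at 0.59 ± 0.08, MCM10 at 0.57 ± 0.07, CDC45 at 0.62 ± 0.08 and CCNE2 at 1.04 ± 0.10. In bulk RNA, more cells in cycle and more of these transcripts per cell cannot be told apart. Of 13 CDK inhibitors and D-type cyclins, 7 were higher and 4 lower (53.8% and 30.8%). CDKN2B, the inhibitor p15, was at 119.8, 127 and 129 CPM and 36.1, 33.8 and 35.5 CPM, lower at -1.84 ± 0.06. CDKN1C (p57) was lower at -1.17 ± 0.15, and CCND2 (cyclin D2) and CDKN2D (p19) were higher at 1.27 ± 0.06 and 0.69 ± 0.13.

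Most quiescence genes were lower in resistant cells under the drug. Of 14 quiescence and FOXO-type genes, 9 were lower and 2 higher under the drug (64.3% and 14.3%), with a median of -0.71, while in DMSO 8 were higher and 3 lower. For 10 the difference was called as lower under the drug, for 1 as higher, with and without sensitive DMSO replicate 2. FBXO32 (atrogin-1, a FOXO-induced ubiquitin ligase subunit) was at 282, 298 and 287 CPM in the sensitive and 62.7, 63.8 and 64.5 CPM in the resistant libraries, or -2.18 ± 0.06. In DMSO its difference was 0.04 ± 0.06 (adjusted p = 0.624), and the difference of -2.22 ± 0.09 between the 2 was called. FOXO4 was lower at -2.18 ± 0.09 and PIK3IP1, an inhibitor of PI3 kinase, at -1.40 ± 0.12. KLF4 was the larger of the 2 genes that were higher, at 2.06 ± 0.10.

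Of 16 BCL-2 family genes, 8 were higher and 5 lower (50% and 31.2%). The 3 lowest log2 fold changes of the list were those of BH3-only genes, whose proteins start apoptosis. BCL2L11 (BIM) was at 42.5, 44.5 and 46.6 CPM in the sensitive and 5.31, 5.98 and 7.23 CPM in the resistant libraries, lower at -2.86 ± 0.12 under the drug against -0.76 ± 0.12 in DMSO. BIK was at 4.79, 4.29 and 5.31 CPM and 0.878, 0.857 and 0.710 CPM, or -2.54 ± 0.16, and BMF, at under 2 CPM, was lower at -2.30 ± 0.22. BCL2 itself, the survival protein, was higher at 2.38 ± 0.20, from 0.334, 0.514 and 0.610 CPM to 2.57, 2.76 and 2.32 CPM. Of 20 p53 targets, 8 were higher and 3 lower (40% and 15%; 5 lower without sensitive DMSO replicate 2), with FAS, AEN and TIGAR higher by 0.73 to 1.16 and TP53INP1 lower at -0.79 ± 0.09. In DMSO 16 of the 20 were higher (17 without sensitive DMSO replicate 2) and none was lower.

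Most mesothelial markers were lower in resistant cells in both media. Of 19 mesothelial markers tested, 13 were lower and 2 higher under the drug (68.4% and 10.5%; median -0.59) and 17 lower and 1 higher in DMSO (median -1.19). The difference between the 2 was called as higher under the drug for 7 and lower for 3. Their summed level ran from 12540 to 12970 CPM in the sensitive libraries with drug and from 9091 to 10130 CPM in the resistant ones. Most of each sum came from the keratins KRT7, KRT8, KRT18 and KRT19. CALB2 and WT1 had means of 1670 and 151 CPM in sensitive cells with drug, and of 448 and 125 CPM in resistant ones. None of the 19 was at 0, but MUC16, HP and GPM6A had only 3, 10 and 13 counts over the resistant libraries with drug. PRG4 (lubricin) was at 41.1, 41.4 and 36.7 CPM in the sensitive and 0.334, 0.278 and 0.382 CPM in the resistant libraries, or -6.90 ± 0.15 against -2.33 ± 0.21 in DMSO. ITLN1 (intelectin) was at 33.4, 33.7 and 30.3 CPM and 2.19, 2.29 and 2.02 CPM, or -3.90 ± 0.10. KRT5 was one of the 2 markers that were higher, at 1.94 ± 0.07. UPK1B had means of 349 CPM in sensitive and 666 CPM in resistant cells with drug, and of 989 and 714 CPM in DMSO. Of 18 epithelial and junction genes listed, 10 were tested, and these were mostly lower, 7 against 2 higher (70% and 20%). In DMSO 8 were lower and 2 higher, and the difference was called as higher under the drug for 5 and lower for 1. Means that went the other way under the drug included those of ESRP2, at 24.6 CPM in sensitive and 35.1 CPM in resistant cells, and CLDN4, at 1.18 and 1.88 CPM. ELF3, an epithelial ETS factor, was at 75.7, 83.1 and 73.2 CPM and 2.59, 2.71 and 2.32 CPM, or -4.92 ± 0.09, and TJP3 and KRT17 were lower at -2.88 ± 0.15 and -2.04 ± 0.23.

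Mesenchymal and EMT genes leaned higher, 10 of 15 with 3 lower (66.7% and 20%), with a median of 0.57 under the drug and 0.45 in DMSO. SNAI2 (SLUG, a repressor of epithelial genes) was at 4.56, 6.56 and 6.34 CPM in the sensitive and 58.3, 55.5 and 55.0 CPM in the resistant libraries, or 3.27 ± 0.11. FN1 (fibronectin) was at 19.004, 17.2 and 18.8 CPM and 74.3, 66.3 and 64.5 CPM, or 1.90 ± 0.12. VIM (vimentin) was at 569, 656 and 595 CPM and 1884, 1868 and 1875 CPM, or 1.63 ± 0.07, and LOX was higher by 1.61 ± 0.06. The 4 genes were also higher in DMSO, by 1.28 to 3.64. Means that went the other way under the drug included that of CDH2 (N-cadherin), at 932 CPM in sensitive and 681 CPM in resistant cells. SNAI1, at 2.48 and 1.89 CPM, and S100A4, at 2.82 and 1.85 CPM, did so at low levels. Contractile SRF/MRTF genes were 8 higher and 3 lower of 17 (47.1% and 17.6%). CNN1 (calponin) was at 3.87, 3.78 and 4.32 CPM and 21.6, 18.7 and 21.6 CPM, or 2.37 ± 0.11 against 0.30 ± 0.09 in DMSO, and MYL9 was lower at -0.91 ± 0.08.

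Collagens were mostly lower, 10 of 18 with 4 higher (55.6% and 22.2%). COL3A1 was lower at -3.93 ± 0.19 and COL7A1 at -1.98 ± 0.11, while COL17A1, a hemidesmosome collagen, was higher at 2.93 ± 0.11. COL13A1 had 26 against 471 counts, a ratio of 15.1 (95% counting interval 10.3 to 23.2). Of 22 metalloproteases and their inhibitors, 9 were higher and 4 lower (40.9% and 18.2%), with ADAMTS1 at 2.67 ± 0.08, ADAM12 at 1.78 ± 0.11 and the inhibitor TIMP3 at 1.42 ± 0.05. In DMSO 14 were higher and 3 lower (14 and 4 without sensitive DMSO replicate 2), with a median of 0.72 against 0.07 under the drug. The difference was called as higher under the drug for 7 and lower for 8 (7 and 9 without sensitive DMSO replicate 2). MMP1, a collagenase, was at 2.34, 2.63 and 2.28 CPM and 0.460, 0.672 and 0.628 CPM, lower at -2.05 ± 0.19, while in DMSO its difference of 0.59 ± 0.26 was not called (adjusted p = 0.0761), or was called at 0.0359 without sensitive DMSO replicate 2. Wnt and Notch genes split 11 higher and 11 lower of 27 (40.7% each). WNT5B and DKK1, a secreted Wnt inhibitor, were higher at 3.10 ± 0.10 and 2.98 ± 0.06, and the receptor FZD7 and the Wnt target AXIN2 were lower at -4.37 ± 0.11 and -2.79 ± 0.14.

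Most acute phase, cytokine and MHC class I genes were lower in resistant cells under the drug, as were 18 of 34 interferon-stimulated genes. Of 17 acute phase and complement genes, 15 were lower and 2 higher (88.2% and 11.8%), 13 of them lower by at least 2-fold, with a median of -4.21 (the same with SAA4, at 0 in resistant cells, set to its bound). In DMSO 14 were lower and 3 higher, with a median of -2.73. The difference was called as lower under the drug for 13 (12 without sensitive DMSO replicate 2) and as higher for none. HP (haptoglobin) had 2607, 2965 and 3052 counts in the sensitive libraries and 2, 6 and 2 in the resistant ones, a ratio of 1030 (95% counting interval 561 to 2150). C3 (chromosome 19, 6677704 to 6730562), the central complement protein, was at 4064, 4344 and 4167 CPM and 718, 680.04 and 752 CPM, a log2 fold change of -2.55 ± 0.06. SAA1 and SAA2, serum amyloid genes so alike that reads may be split between them, were lower at -6.59 ± 0.14 and -6.92 ± 0.13. SAA4 had 142 counts over the sensitive libraries and 0 over the resistant ones, at least 56.6-fold lower by the floor of 3 counts over the group.

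NF-kB, cytokine and chemokine genes were lower in 18 of 24 cases and higher in 4 (75% and 16.7%), with a median of -1.35 under the drug and -0.20 in DMSO (-0.12 without sensitive DMSO replicate 2). The difference was called as lower under the drug for 15 and higher for 1 (16 and 1 without sensitive DMSO replicate 2). CXCL1, a neutrophil chemokine, was at 17.5, 24.4 and 22.3 CPM in the sensitive and 1.78, 1.85 and 1.61 CPM in the resistant libraries, or -3.61 ± 0.13. IL6 was at 23.7, 28.2 and 25.8 CPM and 4.24, 3.34 and 4.37 CPM, or -2.70 ± 0.11, and CCL7 was lower at -3.06 ± 0.19. IL11, an IL-6 family cytokine, went the other way, at 2.42, 1.48 and 2.23 CPM and 16.1, 14.9 and 13.9 CPM, or 2.87 ± 0.13.

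Of 34 interferon-stimulated genes, 18 were lower and 6 higher (52.9% and 17.6%, beside 31.1% and 30.7% of all genes), with a median of -0.47. In DMSO 10 were lower and 11 higher (29.4% and 32.4%, beside 24.4% and 24.2% of all genes), or 8 and 11 without sensitive DMSO replicate 2. For 17 the difference was called as lower under the drug and for none as higher (18 and 0 without sensitive DMSO replicate 2). STAT2, which carries the interferon signal, was at 188, 200.2 and 179 CPM in the sensitive and 85.3, 89.7 and 92.2 CPM in the resistant libraries, or -1.09 ± 0.06. IFI6 was at 87.8, 138 and 68.7 CPM and 27.04, 23.5 and 27.6 CPM, and IFI44L at 2.95, 6.74 and 2.07 CPM and 1.15, 0.741 and 1.42 CPM. In these and in BST2 the 3 sensitive libraries were unequal. IFIT1, chosen after its values were seen because its promoter is printed above, was at 88.4, 114 and 79.98 CPM and 59.4, 62.5 and 67.6 CPM, or -0.58 ± 0.11. Antigen presentation genes of MHC class I were lower in 15 of 18 cases and higher in 1 (83.3% and 5.56%; 2 higher without sensitive DMSO replicate 2). B2M, the shared light chain, was at 3051, 3444 and 3196 CPM and 1476, 1606 and 1592 CPM, or -1.05 ± 0.07, and HLA-B and NLRC5, the activator of these genes, were lower at -1.17 ± 0.09 and -1.41 ± 0.07. In DMSO 15 of the 18 were also lower (16 without sensitive DMSO replicate 2).

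**Figure D4:**
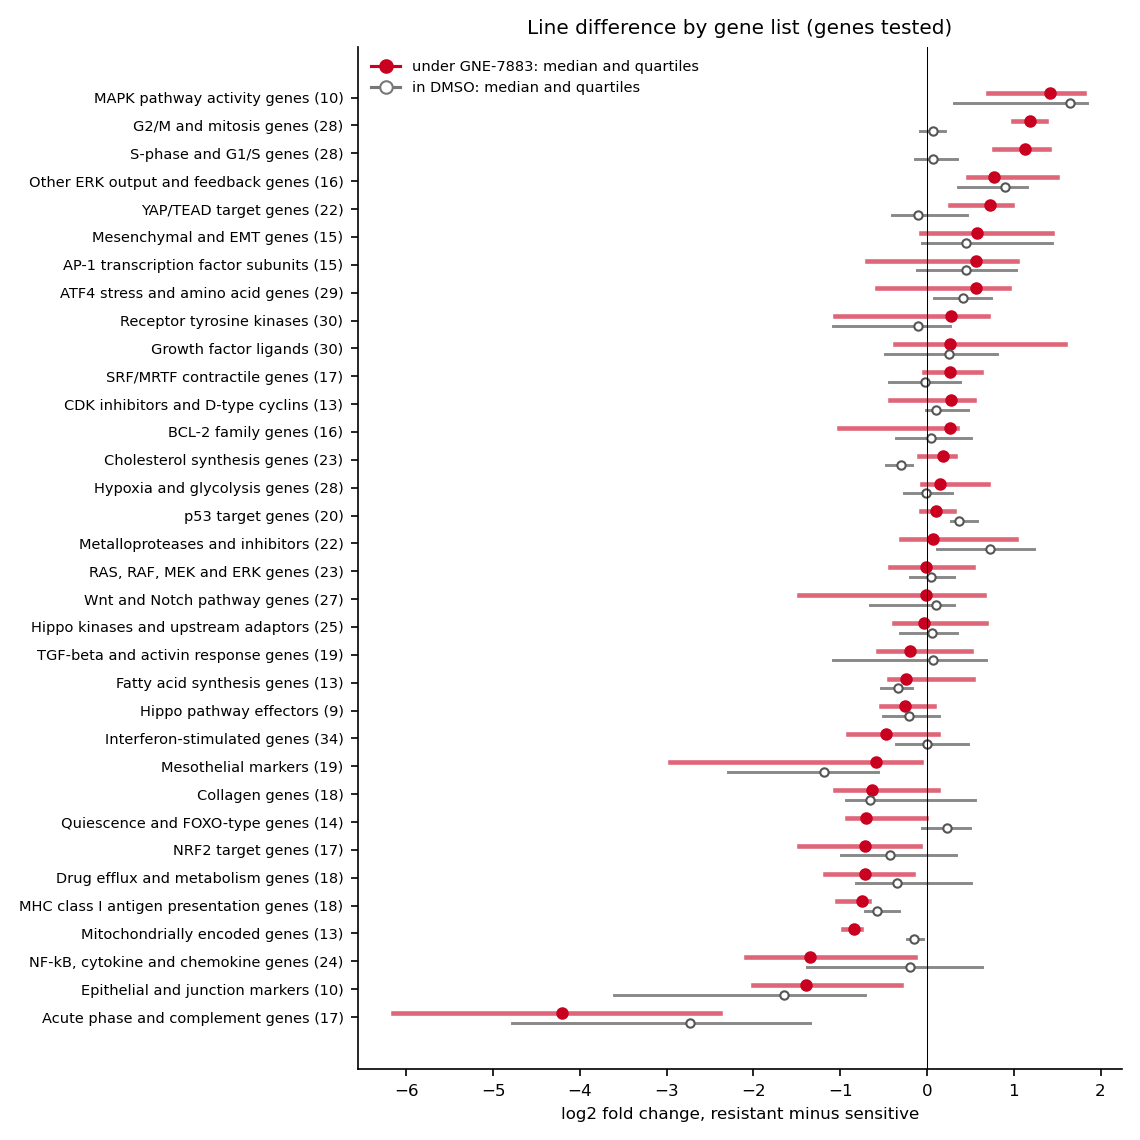
Median (point) and quartiles (bar) of the log2 fold change between the lines over each list of at least 8 tested genes, under GNE-7883 (red) and in DMSO (grey, open), ordered by the median under the drug, with the genes tested in brackets. The S-phase and G2/M lists lie above 1 under the drug and near 0 in DMSO, and the acute phase list is lowest in both.

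Metabolic lists differed in parts. Of 23 cholesterol synthesis genes, 12 were higher and 5 lower under the drug (52.2% and 21.7%), against 1 higher and 17 lower in DMSO, and the difference was called as higher under the drug for 14 and lower for none (17 and 1 without sensitive DMSO replicate 2). MVK, mevalonate kinase, was at 22.1, 19.5 and 23.2 CPM in the sensitive and 46.2, 39.4 and 44.3 CPM in the resistant libraries. FDFT1 was higher at 0.64 ± 0.06, and LSS and TM7SF2 lower at -0.85 ± 0.07 and -1.20 ± 0.08. Fatty acid synthesis genes split 6 higher and 7 lower of 13 (46.2% and 53.8%), with FASN at 273, 204 and 263 CPM in the sensitive and 495, 365 and 396 CPM in the resistant libraries, higher by 0.76 ± 0.12 under the drug and lower at -0.40 ± 0.12 in DMSO. ACACB was lower at -1.62 ± 0.10, and the desaturases FADS1 and FADS2 at -0.66 ± 0.05 and -0.59 ± 0.06.

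Of 29 ATF4 stress and amino acid genes, 17 were higher and 9 lower (58.6% and 31%), 7 and 1 by at least 2-fold. SLC7A5 (chromosome 16, 87830023 to 87869488), the large neutral amino acid transporter, was at 81.8, 76.9 and 83.8 CPM in the sensitive and 394, 349 and 358 CPM in the resistant libraries, or 2.18 ± 0.07, and at -0.04 ± 0.06 in DMSO (adjusted p = 0.680). PSAT1, of serine synthesis, was at 12.9, 12.3 and 14.9 CPM and 83.4, 89.3 and 88.1 CPM, or 2.70 ± 0.07. MTHFD2 and PYCR1, mitochondrial enzymes of folate and proline synthesis, were higher at 1.71 ± 0.06 and 1.53 ± 0.10. Of 28 hypoxia and glycolysis genes, 14 were higher and 4 lower (50% and 14.3%). SLC2A1, the glucose transporter GLUT1, was at 27.99, 27.8 and 28.4 CPM and 128, 117 and 121 CPM, or 2.12 ± 0.06, and PFKFB4 was higher at 1.46 ± 0.12. HK2, a hexokinase, was lower at -1.74 ± 0.08, with 0.08 ± 0.07 in DMSO (adjusted p = 0.385), and CA9, carbonic anhydrase 9, was lower at -2.94 ± 0.10.

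All 13 mitochondrially encoded genes tested were lower, by a median of -0.84, beside 31.1% of all genes. MT-ATP6 was at 528, 606 and 557 CPM in the sensitive and 288, 282 and 255 CPM in the resistant libraries, or -1.03 ± 0.09, and MT-ND5, MT-ND6 and MT-ND2 were lower at -1.02 ± 0.13, -0.99 ± 0.10 and -0.96 ± 0.08. In DMSO 1 was higher and 4 lower (2 and 5 without sensitive DMSO replicate 2). The mitochondrial share of counts ran from 0.954% to 1.09% in the sensitive and from 0.614% to 0.693% in the resistant libraries, and its part in other results was not tested.

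Of 17 NRF2 targets, 12 were lower and 2 higher (70.6% and 11.8%). NQO1 was at 586, 623 and 598 CPM in the sensitive and 222, 227 and 226 CPM in the resistant libraries, or -1.42 ± 0.06, and GSR (glutathione reductase) and FTH1 (ferritin heavy chain) were lower at -1.48 ± 0.05 and -1.98 ± 0.14. AKR1C3, one of several near-identical genes whose reads may be split, was lower at -4.01 ± 0.22. Of 18 drug efflux and metabolism genes, 12 were lower and 3 higher (66.7% and 16.7%), so that ABCG2 stood against the direction of its list. ABCC3 was lower at -2.48 ± 0.07 and NNMT, which methylates nicotinamide, at -2.59 ± 0.08, while CYP1A1, at under 2 CPM, was higher at 2.08 ± 0.24.

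Genes that separated the lines under the drug and by little in DMSO numbered 296 where a minimum of 5 CPM in any group was set. For these the difference under the drug was called and at least 2-fold, the DMSO difference was under 0.25 on the log2 scale and the gap between them was called. Of the 296, 218 were higher and 78 lower in the resistant cells under the drug, and without sensitive DMSO replicate 2 the set held 270, of which 208 higher and 62 lower. STXBP6 was at 26.4, 22.8 and 25.6 CPM in the sensitive and 141, 147 and 142 CPM in the resistant libraries, or 2.52 ± 0.06, and at 0.03 ± 0.06 in DMSO. MAP3K7CL at 2.07 ± 0.08 was of the same kind, as was ENSG00000260466, a gene with no symbol, at 2.52 ± 0.16. ENPP2 (autotaxin, which makes lysophosphatidic acid) was at 5.70, 6.25 and 6.15 CPM and 0.564, 0.741 and 0.710 CPM, or -3.17 ± 0.15 against -0.25 ± 0.19 in DMSO. MSC, MT1X (a metallothionein with near-identical copies) and ABCG1, a cholesterol transporter, were lower at -1.93 ± 0.12, -1.88 ± 0.11 and -1.77 ± 0.09.

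With the same minimum, 571 genes were called with opposite signs in the 2 media, 335 of them higher and 236 lower in resistant cells under the drug (660, 388 and 272 without sensitive DMSO replicate 2). NPPB (B-type natriuretic peptide; chromosome 1, 11857464 to 11858931) had one of the largest gaps. It was at 5.51, 5.23 and 6.26 CPM in the sensitive and 61.2, 52.97 and 60.5 CPM in the resistant libraries with drug, higher by 3.36 ± 0.11, and at 102, 120.1 and 98.5 CPM and 71.4, 80.8 and 66.5 CPM in DMSO, lower at -0.55 ± 0.09. TNIP3, an inhibitor of NF-kB signals, was lower at -1.32 ± 0.14 under the drug and higher at 1.21 ± 0.16 in DMSO. SESN3, MTSS1, GAREM1 and ABCA1 had the same pattern, with drug values from -1.39 to -0.67. ZBED2, ADH6, PSG1 and BTNL12P had the reverse, at 0.96, 0.93, 0.94 and 1.29 under the drug; PSG1 belongs to a family of near-identical genes. ESM1, an endothelial secreted proteoglycan, differed by 3.65 ± 0.17 in DMSO and was at -0.04 ± 0.15 under the drug (adjusted p = 0.807). KRT4 and ANKRD2 were lower by less under the drug, at -1.90 ± 0.15 and -0.90 ± 0.16, than in DMSO, at -5.16 ± 0.11 and -4.08 ± 0.14.

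Markers of other cell types were read beside these results. The summed level of 16 blood cell markers ran from 22.8 to 23.4 CPM in the sensitive and from 4.67 to 5.22 CPM in the resistant libraries with drug, with CD3E, MS4A1 and CD68 among those at 0 in both and 2 of the 5 tested called lower, ITGAM at -2.36 ± 0.09 and CD14 at -3.68 ± 0.23. The 10 endothelial markers ran from 217.5 to 228.6 CPM and from 113.5 to 130.5 CPM, with EMCN at 0 in both. KDR was most of the first range, TIE1 and EGFL7 were higher at 1.62 ± 0.08 and 0.85 ± 0.16, and VWF was lower at -0.73 ± 0.21. The 12 alveolar and airway markers ran from 754.6 to 782.6 CPM and from 3.68 to 4.26 CPM, with SCGB3A2 and MUC5AC at 0 in both. SFTPD was nearly all of the first range. In the second its mean was 1.58 CPM, below AGER at 2.28 CPM, which had a mean of 3.1 CPM in sensitive cells. Squamous markers summed to 502.2 to 520.4 CPM and 332.4 to 335.2 CPM, with IVL higher at 3.05 ± 0.09 and DSC3 lower at -1.29 ± 0.11. The part of such cells in the results was not tested.

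By position, medians of neighbouring genes are given with no test. Windows of 10 Mb were kept if they held at least 20 tested genes with a mean of 1 CPM or more in a group. Among these 260 windows, the medians furthest above 0 lay on chromosome 7 from 50 to 60 Mb (20 genes, median 0.83, and 0.67 in DMSO) and on chromosome 10 from 10 to 20 Mb (46 genes, 0.74 and 0.50). For chromosome 10 from 20 to 30 Mb the medians were 0.53 and 0.48. For chromosome 22 from 10 to 20 Mb they were 0.53 and 0.37, with 25 of 28 genes above 0, where the median over all genes tested was -0.01. The other chromosome 22 windows had medians from 0.32 to 0.44 under the drug. The median furthest below 0 was that of chromosome 6 from 120 to 130 Mb (24 genes, -0.53 and -0.30).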

How the data were processed

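RNA of 2 lines, with and without GNE-7883, was sequenced in 12 libraries as single-end 50-base reads from a kit that does not mark strand (TruSeq RNA v2), per the labels' protocols. The submitters' processing notes name GSNAP, limma and GRCh38.p10. Which tool, annotation and strand setting gave the counts is not given in the sources used here, so overlapping and antisense genes, and near-identical copies, are uncertain. The authors deposited unnormalized whole-number counts for 58302 Ensembl genes. The RPKM values that the authors deposited for these libraries were used only to compare levels between genes. Over 12122 genes the deposited RPKM equalled the counts divided by a gene factor and the library total, with relative deviations up to 9.5e-09. Libraries held 31878934 to 46962645 counts, so that a count of 0 allows up to 0.0639 to 0.0941 CPM (3 counts), and intervals and floors cover counting error only.

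Counts were tested with edgeR 4.0.16 (R 4.3.3), with the filterByExpr filter by group (18035 genes), TMM scaling, 1 mean per group over 12 libraries, 8 residual degrees of freedom, two-sided quasi-likelihood tests and Benjamini-Hochberg adjustment over all genes of a comparison. Standard errors are the log2 fold change over the root of the F statistic. The comparisons were resistant against sensitive under GNE-7883, the same in DMSO, which share no library, and the difference of both. Counts of 18035 genes were simulated for the first, with 100 genes changed by 1 and 100 by 2 on the log2 scale in 1 group. All other genes had the same mean in every group. Of the changed genes 83% and 92% were recovered, with 10 false calls. Far fewer genes differed there than the 61.9% called in these data, so these rates may not hold here. Ratios of low counts carry 95% intervals from the exact Poisson interval of the lower count, with the higher count taken as fixed. Members and the 38 gene lists were chosen with earlier results of these data known. Lists are described by counts, shares and medians, read against the shares and the median over all genes given once for each comparison, with no test of their own.

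Named genes are the 12 largest called log2 fold changes in each direction among non-overlapping protein-coding genes at 5 CPM or more. Up to 4 called members of each list at 1 CPM or more were added, with all YAP/TEAD targets, Hippo effectors and MAPK activity genes. The rule also takes the 6 largest differences from DMSO in each direction, 5 with a DMSO difference under 0.25, 5 with opposite signs, and the 5 highest CPM among 2-fold calls. A few genes that the rule takes or the lists hold are not reported here by name, though counts and medians include them. Promoters came from RefSeq (GRCh38.p14) and coordinates from GENCODE 29 on GRCh38, which matched 58039 of 58302 identifiers. Alternatives were DESeq2 size factors, DESeq2 1.42.0, voom of limma 3.58.1, no filter, a filter of 5 CPM, only the libraries compared, a replicate block and leaving out each library, and, chosen after seeing the data, library totals alone and a block on the 6 libraries.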

Additional observations from a re-analysis of the deposited data

Results flagged for a closer look

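A line difference that itself differed between GNE-7883 and DMSO, by edgeR's test of the difference (adjusted p under 0.05), is listed here for the genes named for it. Values are the log2 line difference under the drug minus that in DMSO. Genes whose resistant libraries were relatively higher under the drug, with opposite signs in the 2 media, were NPPB (3.91), ZBED2 (2.61), ADH6 (2.66), BTNL12P (2.86), ERBB3 (2.26) and PSG1 (1.98). Those with the largest gaps and no turn of sign were RGS7 (4.03), ANKRD2 (3.17), KRTAP2-3 (3.02), KRT4 (3.26) and ADAMTS6 (3.01). RGS7 had 10 counts over the sensitive and 478 over the resistant libraries, a ratio of 40 (95% counting interval 21.7 to 83.3), and KRTAP2-3, which has near-identical copies, had 10 against 590. Genes near level in DMSO were ENSG00000260466 (2.53), STXBP6 (2.49), SLC7A5 (2.22) and MAP3K7CL (2.05).

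Genes relatively lower in resistant cells under the drug were, with opposite signs, TNIP3 (-2.52), GAREM1 (-2.08), SESN3 (-1.90), MTSS1 (-1.57) and ABCA1 (-1.55). Large gaps were also called for PRG4 (-4.57), MAP1A (-4.24), ANGPTL7 (-4.00), ESM1 (-3.70) and AQP1 (-2.83). AQP1, a water channel, was at 24.2, 22.9 and 26.1 CPM in the sensitive and 1.25, 1.64 and 1.64 CPM in the resistant libraries with drug, a log2 fold change of -4.02 ± 0.13 against -1.19 ± 0.17 in DMSO. MAP1A had 782 counts over the sensitive and 29 over the resistant libraries, a ratio of 32.3 (22.5 to 48.2), and ANGPTL7 had 763 against 22, a ratio of 41.5 (27.4 to 66.2). Genes near level in DMSO were ENPP2 (-2.93), FBXO32 (-2.22), MSC (-2.13), MT1X (-2.10) and ABCG1 (-2.01). All 30 genes kept their call and sign without sensitive DMSO replicate 2, the library that stood apart.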

How the results depend on the processing

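The count of genes called under the drug, 11159, was 10888 with DESeq2, 11119 with voom, 11155 with DESeq2 size factors, 11718 with no filter, 8245 with a filter of 5 CPM, 11847 in a fit of only the 6 libraries and 11234 with library totals alone. It ran from 10394 to 12181 when each library was left out in turn, the highest without sensitive DMSO replicate 2. The share of calls that were higher ran between 49.6% and 56.2%, the latter with library totals alone, which moved the median of all genes to 0.064. The count of 2-fold calls, 3590, fell to 1806 with the filter of 5 CPM, which tests 11413 genes. With that filter 13 Wnt and Notch genes, 3 endothelial markers and 1 alveolar marker were called, and with no filter 5 alveolar markers. The other alternatives kept these counts within 1.5 times. The test of the difference from DMSO uses all 12 libraries, so a fit of only the libraries compared was the same for it.

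With the replicate block, 11050 genes were called under the drug, 8594 in DMSO and 6211 for the difference, and 12156 with the block on the 6 libraries alone. The numbers were not taken to pair libraries: 5 of 18 same-numbered pairs deviated together at r over 0.1, and under the drug the pairs between the lines had r = 0.239 for replicates 1, 0.337 for replicates 2 and -0.0193 for replicates 3. Sensitive replicate 3 correlated more with resistant replicate 1 (0.224) than with its own number.

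Of 221 named genes, none turned its sign past the threshold in any alternative. Calls were lost for TEAD2 and, without resistant GNE-7883 replicate 2, for VWF (adjusted p = 0.0538), and gained for CRIM1, DOCK5, VGLL2, VGLL4 and YAP1. Without sensitive DMSO replicate 2, 4 of these genes changed their call under the drug, 8 in DMSO and 13 for the difference. Medians of the Hippo kinase, RAS to ERK, receptor, Wnt and Notch, endothelial and squamous lists changed sign under some alternatives. Genes of a few counts limit the fold, not the direction, of the largest drops. The libraries of a group may be technical repeats, and 1 resistant line stands for resistance.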
